A study of Homo sapiens with 4 samples.

Results

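Transcripts of the ZNF genes, which encode zinc finger proteins, were examined in HepG2, a human liver cancer cell line. Cells had received anti-miR-191, an antisense oligonucleotide that blocks the microRNA miR-191, or anti-miR-NC, its non-targeting counterpart. Each agent was used in 2 experiments, described as independent studies, so that 4 Affymetrix arrays were available, 2 with anti-miR-191 and 2 with anti-miR-NC. All cultures were HepG2 cells transfected with the same lipid reagent. The sources used here give neither dose nor time, and all arrays come from 1 cell line. The genes were selected on their name and their level: a row of the array with a single gene symbol made of ZNF, digits and an optional letter, the brightest row of a gene, and a mean over the 4 arrays above 3.41 on the log2 scale, a limit set as a percentile of all row means to leave out the dimmest rows. Of 480 ZNF genes on the array, 260 met this rule, and 220 lay below the limit. The 260 genes are set below against all 14147 genes that passed the same limit.

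Most ZNF genes encode proteins with arrays of C2H2 fingers, in which a zinc ion holds a short fold that reads DNA. The largest branch carries a KRAB domain, which recruits the corepressor TRIM28 and, through it, the histone methyltransferase SETDB1, and keeps transposable elements and other targets silent. Many of its genes lie in tandem clusters on chromosome 19. Other ZNF proteins are activators, or act in chromatin complexes, in ribosome assembly or in RNA silencing. MicroRNAs bind messenger RNAs through their seed. The inhibited microRNA, hsa-miR-191-5p (chr3:49020672-49020694 on the minus strand of GRCh38.p14, from RefSeq), is shown with its seed, bases 2 to 8, in capitals:

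hsa-miR-191-5p: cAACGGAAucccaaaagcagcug

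Intensities had been summarized with RMA and are log2 values, with medians over all rows between 4.37 and 4.43. Their interquartile range was 3.38 and 3.43 with anti-miR-191, against 3.18 and 3.24 with anti-miR-NC. Of 13 tested hepatocyte markers, control means lay between 4.82 and 12.96, and TTR alone was called, lower after anti-miR-191. Their levels summed to 122.9 and 117.3 with anti-miR-191, against 123.8 and 125.3 with anti-miR-NC, with a median change of 0.02 (experiment 1) and -0.56 (experiment 2); the part of this in the ZNF results was not tested. Of 13 tested markers of other cell types, control means lay between 3.42 and 6.02 (COL1A1), none passed the test in either direction, and their levels summed to 56.0 and 56.5 with anti-miR-191, against 56.7 and 56.4 with anti-miR-NC. Signals of this size were read for genes that HepG2 cells are not known for, so a ZNF gene with a control mean at or below 6.02 is not shown to be above background. This held for 200 of the 260 genes. Changes are anti-miR-191 minus anti-miR-NC on the log2 scale, given per experiment or as the mean of both ± SE. A gene is said to have risen when limma's Benjamini-Hochberg adjusted p, over all genes tested, was under 0.05 in the fit with the experiment as a block. The SE and p-values are limma's moderated ones, in which each gene's variance is drawn toward a value pooled over all genes tested. They are therefore not the spread of a gene's own arrays alone. With 2 arrays a group, they do not cover variation beyond these arrays. In bulk RNA, fewer cells of a type and less RNA per cell cannot be told apart.

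Of the 260 ZNF genes, 52 rose after anti-miR-191 and 0 fell. This is 20% higher, beside 10.1% of all genes tested, and 0 lower, beside 3.77% of all genes tested. At an unadjusted p under 0.05, limma's fit with the block counted 78 ZNF genes higher, beside 2704 of all 14147 genes. It counted 10 ZNF genes lower, and those 10 are 3.85% of the ZNF genes, beside 8.98% of all genes. The 52 risen genes changed by 1.49-fold to 2.56-fold, 51 of them by at least 1.5-fold, with adjusted p between 0.0047 and 0.0495. In all 52, both anti-miR-191 arrays read above both controls. Such a separation upward was seen in 119 ZNF genes (45.8%, beside 29.4% of all genes) and downward in 42 (16.2%, beside 23.8%). The median change of the 260 genes was 0.12, against 0.01 over all genes tested. It was 0.11 in experiment 1 and 0.13 in experiment 2.

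The number of calls depended on the fit. Without the experiment as a block, limma called 13 ZNF genes higher and 0 lower, which is 5% higher, beside 3.2% of all genes higher and 0.714% lower. At an unadjusted p under 0.05 this fit counted 70 ZNF genes higher and 8 lower, beside 2159 and 889 of all 14147 genes. Those 13 were ZNF79, ZNF142, ZNF143, ZNF263, ZNF276, ZNF408, ZNF410, ZNF503, ZNF556, ZNF644, ZNF707, ZNF710 and ZNF823, and all 13 also kept their call with the block when the arrays were rescaled by median, quantile or cyclic loess. With single arrays left out of the fit without the block, 3 ZNF genes passed when the experiment 1 anti-miR-191 array was dropped. None, 0 in each case, passed when any other array was dropped, although limma counted 43 (experiment 2 anti-miR-191 array dropped), 59 (experiment 1 control dropped) and 57 (experiment 2 control dropped) higher by unadjusted p under 0.05. The change of all 52 risen genes stayed positive in each of these 4 settings, which was fixed in advance. Both of their anti-miR-191 arrays read above both controls, so dropping 1 array cannot reverse the sign. After quantile normalization of the arrays, 34 ZNF genes were called higher and 1 lower, beside 6.23% and 3.61% of all genes. After cyclic loess 49 were called higher and 1 lower, beside 8.81% and 3.91% of all genes. The gene called lower was ZNF385C after quantile normalization and ZNF428 after cyclic loess.

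The call itself favours genes whose changes were alike in both experiments, since that difference is the residual of the fit with the block. In both experiments, 31 ZNF genes were up by 1.5-fold or more (11.9%, beside 6.45% of all genes) and 0 were down by as much (beside 2.22% of all genes). Both experiments were positive for 135 ZNF genes (51.9%, beside 36.5% of all genes) and negative for 61 (23.5%, beside 33.0%). Opposite signs were seen in 64, beside 4303 of all 14147 genes. The widest upward changes were 1.07 for ZNF410 in experiment 1 and 1.71 for ZNF556 in experiment 2. The widest downward changes were -0.74 for ZNF626 in experiment 1 and -0.97 for ZNF428 in experiment 2. Across the 260 genes the changes of the experiments correlated with Pearson r = 0.684 and Spearman rho = 0.666. This describes genes that share 4 arrays, which are not independent. Over all genes tested Pearson r was 0.678.

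**Figure D1:**
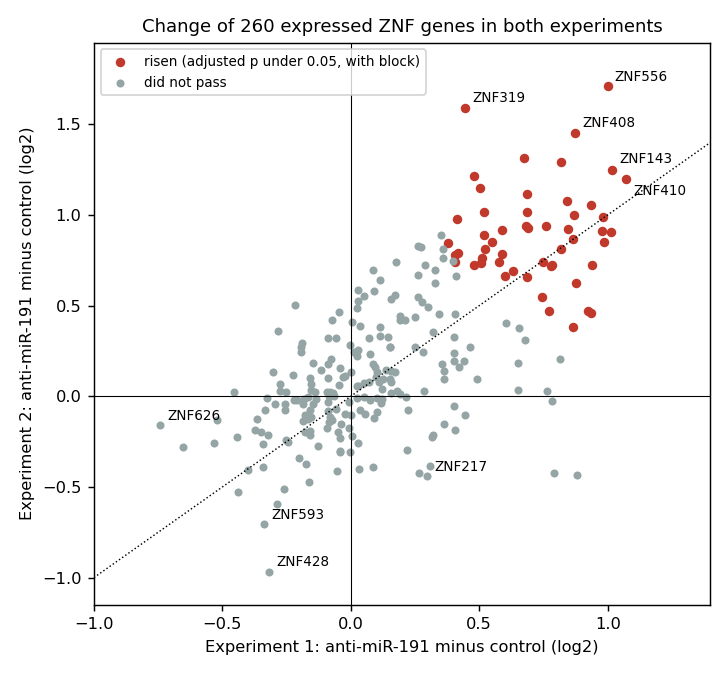
Change of each of the 260 ZNF genes above the level limit, anti-miR-191 minus control (log2), in experiment 1 (horizontal) and experiment 2 (vertical). Red points are the 52 genes that rose in limma's fit with the block, grey points did not pass, and the dotted line marks equal changes; the risen genes all lie in the upper right, and no gene is red in the lower left.

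ZNF410 and ZNF143 both rose, each with a control level not shown to be above background. ZNF410 is a DNA-binding activator known in human cells for an unusually narrow target range, chiefly the chromatin remodeller gene CHD4. It read 6.73 and 6.99 on the anti-miR-191 arrays, against 5.66 and 5.79 on the controls. It rose 2.20-fold (1.14 ± 0.15, limma's adjusted p = 0.0047 with the block and 0.028 without). CHD4 itself was 0.65 higher in experiment 1 and 0.07 higher in experiment 2 and did not pass (adjusted p = 0.234). ZNF143, which activates small nuclear RNA genes and many housekeeping genes, read 4.72 and 4.86 after anti-miR-191, against 3.70 and 3.62 in controls. It rose by 1.13 ± 0.15 (adjusted p = 0.0050 with the block and 0.025 without). Its close paralog ZNF76 read 7.11 and 6.90, against 7.48 and 7.09 in controls, and did not pass (-0.28 ± 0.15, adjusted p = 0.271). ZNF410 and ZNF143 were the 2 ZNF genes that were at least 2-fold higher in both experiments.

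The windows around the annotated starts of these 2 genes are shown because they had the largest change common to both experiments and hold the ETS motif, whose counts follow later. Each runs from 250 bases before to 50 bases after the start (GRCh38.p14, plus strand, from RefSeq). Capitals mark the core of the ETS factor site, CCGGAAG, and the cyclic AMP response element, TGACGTCA, on either strand. ZNF410 lies at chr14:73886609-73886908 and holds 2 ETS cores, 1 on each strand. ZNF143 lies at chr11:9460762-9461061 and holds 1 of each motif.

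ZNF410: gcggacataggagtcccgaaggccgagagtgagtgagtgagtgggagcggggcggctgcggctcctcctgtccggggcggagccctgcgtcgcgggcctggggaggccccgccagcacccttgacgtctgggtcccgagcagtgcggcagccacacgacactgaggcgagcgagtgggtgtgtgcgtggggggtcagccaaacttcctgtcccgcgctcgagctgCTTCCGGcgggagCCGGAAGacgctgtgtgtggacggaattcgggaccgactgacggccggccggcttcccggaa

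ZNF143: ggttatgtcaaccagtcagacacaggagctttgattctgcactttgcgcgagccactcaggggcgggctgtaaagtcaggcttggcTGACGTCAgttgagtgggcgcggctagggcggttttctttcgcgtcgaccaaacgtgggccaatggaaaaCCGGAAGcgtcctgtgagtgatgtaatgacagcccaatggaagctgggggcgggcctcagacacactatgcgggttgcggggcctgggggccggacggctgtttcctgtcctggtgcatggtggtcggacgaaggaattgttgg

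Of the 15 risen genes with the largest change common to both experiments, ZNF556 had the highest mean change as measured. Its control level, like that of ZNF408, is not shown to be above background. It read 5.18 and 5.72 after anti-miR-191, against 4.18 and 4.01 in controls (1.36 ± 0.19, adjusted p = 0.0061). ZNF408, mutated in inherited retinal disease, read 6.71 and 6.98, against 5.84 and 5.53 in controls, and rose 2.24-fold (adjusted p = 0.0076). ZNF503, related to the mouse repressor Nolz1, read 8.10 and 8.42, against 7.28 and 7.13 in controls, and rose 2.08-fold (adjusted p = 0.0086). A second, dimmer row of ZNF503 had a change of -0.05, so the 2 rows of this gene disagree.

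In the remaining 10 of these genes, too, both anti-miR-191 arrays lay above both controls. ZNF79 read 5.82 and 6.05 after anti-miR-191 and 4.84 and 5.06 in controls. ZNF48 read 6.35 and 6.78 after anti-miR-191 and 5.42 and 5.73 in controls. ZNF3 read 6.24 and 6.90 after anti-miR-191 and 5.40 and 5.82 in controls. These 3 rose by between 0.96 and 1.00, and in ZNF3 experiment 2 was higher than experiment 1 in both groups. ZNF460 read 6.31 and 6.61 after anti-miR-191 and 5.30 and 5.70 in controls. ZNF276 read 7.27 and 7.51 after anti-miR-191 and 6.40 and 6.51 in controls. ZNF513, linked to retinitis pigmentosa, read 7.69 and 7.23 after anti-miR-191 and 6.70 and 6.38 in controls. ZNF513 was higher in experiment 1 than in experiment 2 in both groups, the reverse of ZNF460 and ZNF276. ZNF142 read 6.93 and 7.02 after anti-miR-191 and 6.12 and 6.21 in controls. ZNF131, which joins its fingers to a BTB domain, read 5.41 and 5.71 after anti-miR-191 and 4.55 and 4.84 in controls. ZNF823 read 4.29 and 4.44 after anti-miR-191 and 3.31 and 3.53 in controls. ZNF426 read 3.99 and 4.71 after anti-miR-191 and 3.15 and 3.78 in controls, so that its groups were separate but close. The adjusted p of the 15 genes lay between 0.0047 and 0.0117 with the block. Without it 9 passed, and ZNF48, ZNF460, ZNF131, ZNF513, ZNF3 and ZNF426 did not (adjusted p = 0.056, 0.056, 0.059, 0.070, 0.100 and 0.164). Only ZNF142, ZNF276, ZNF503 and ZNF513 among the 15 had control means above 6.02.

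**Figure D2:**
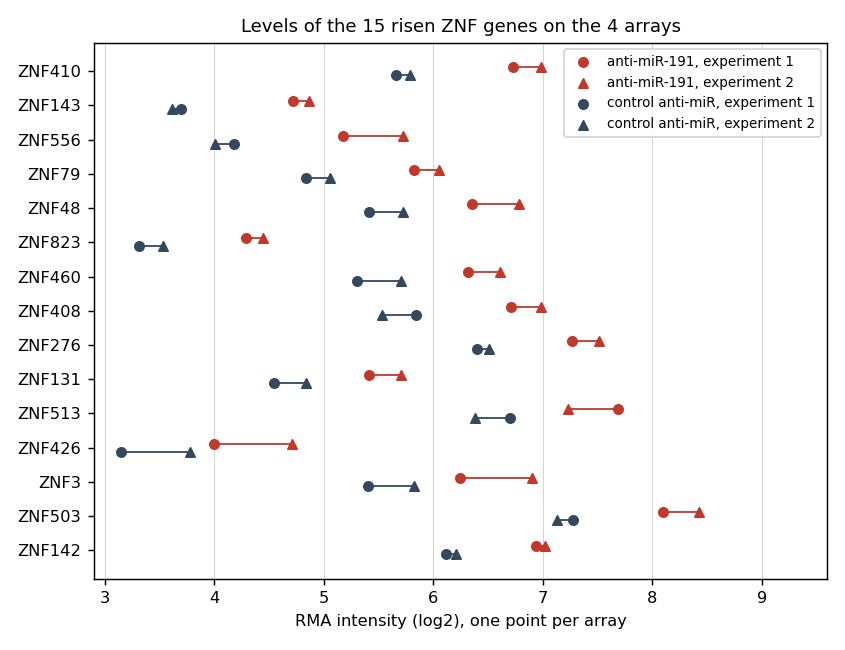
RMA intensity on the log2 scale of the 15 risen ZNF genes with the largest change common to both experiments, with 1 point per array. Red marks anti-miR-191 and dark blue the control anti-miR, circles experiment 1 and triangles experiment 2; in each gene both red points lie to the right of both blue points.

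A list of 40 ZNF genes with described roles was compared by role, and 33 were among the 260. Of these, 12 rose and 0 fell with the block, beside 10.1% of all genes higher and 3.77% lower. Without it 5 rose, beside 3.2% of all genes higher. The list was written with earlier results of these data known, so its share of 36.4% is a description. Besides ZNF410, ZNF143, ZNF503 and ZNF131, the risen DNA-binding regulators were ZNF263, ZNF384, ZNF24, ZNF516 and ZNF335. ZNF263, which joins SCAN and KRAB domains to its fingers, read 5.96 and 6.17, against 5.19 and 5.23 in controls (0.85 ± 0.15, adjusted p = 0.011). ZNF384, a fusion partner in acute leukaemia, read 7.37 and 7.44, against 6.86 and 6.68 in controls (0.64 ± 0.15, adjusted p = 0.030). ZNF24, known as a repressor of VEGFA, read 4.83 and 4.82, against 3.91 and 4.34 in controls (0.70 ± 0.17, adjusted p = 0.030). ZNF516, whose mouse counterpart promotes Ucp1 transcription in brown fat, rose 1.80-fold, with changes of 0.48 and 1.22. ZNF335, a partner of histone H3 lysine 4 methyltransferase complexes, rose 1.70-fold, with changes of 0.52 and 1.02. ZNF384, ZNF24, ZNF516 and ZNF335 did not pass without the block (adjusted p between 0.073 and 0.096). With the block they lost their calls after quantile normalization (limma's adjusted p between 0.052 and 0.088).

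The remaining risen genes of that list act in gene silencing and ribosome assembly. ZNF644, which directs the EHMT1 and EHMT2 methyltransferases to DNA, read 4.33 and 4.49, against 3.64 and 3.56 in controls (0.81 ± 0.15, adjusted p = 0.014). ZNF638, which silences unintegrated retroviral DNA, read 4.12 and 4.70, against 3.71 and 3.72 in controls (0.69 ± 0.18, adjusted p = 0.039). ZNF638 did not pass without the block (limma's adjusted p = 0.133). With the block it lost its call after median centring (0.053) and quantile normalization (0.056). ZNF622, the counterpart of a yeast factor that matures the large ribosomal subunit, read 6.66 and 6.85, against 5.88 and 6.12 in controls (0.75 ± 0.14, adjusted p = 0.015 with the block and 0.062 without). Another factor of that subunit, ZNF593, did not pass and lay on the other side. It read 8.34 and 8.30, against 8.68 and 9.0 in controls (-0.52 ± 0.16, adjusted p = 0.070). ZNF598, the ubiquitin ligase that marks collided ribosomes, had changes of 0.33 and 0.62 (adjusted p = 0.085). ZNF274, which brings SETDB1 to ZNF genes, had changes of 0.03 and 0.58 (adjusted p = 0.312). The rest of the list that did not pass included the kinetochore factor ZNF207 (0.07 ± 0.15), ZNF281 (0.25 ± 0.15), ZNF148 (0.10 ± 0.15), ZNF318 (-0.19 ± 0.14) and ZNF395 (-0.14 ± 0.14).

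Of the other risen genes, 3 have described roles outside that list and were named after their values were seen. ZNF202, a repressor of genes of lipoprotein metabolism, read 4.87 and 4.90, against 4.35 and 4.01 in controls (0.71 ± 0.16, adjusted p = 0.026). ZNF804A, known from psychiatric genetics, read 3.75 and 4.02, against 3.16 and 3.11 in controls, a control mean below the limit of 3.41. ZNF282, first found through its binding to a retroviral long terminal repeat, read 7.84 and 7.78, against 7.15 and 6.85 in controls (0.81 ± 0.15, adjusted p = 0.014). ZNF319 had the least even response of the 52, with changes of 0.45 and 1.59 (1.02 ± 0.25, adjusted p = 0.036). The others that rose, by between 0.57 and 0.99, were ZNF37A, ZNF121, ZNF134, ZNF251, ZNF343, ZNF394, ZNF398, ZNF407, ZNF436, ZNF555, ZNF561, ZNF574, ZNF581, ZNF587, ZNF623, ZNF646, ZNF655, ZNF669, ZNF689, ZNF691, ZNF707, ZNF710, ZNF777, ZNF786 and the pseudogene ZNF767P.

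No ZNF gene fell, and the lowest values were modest. ZNF428 read 6.02 and 5.63 after anti-miR-191, against 6.34 and 6.60 in controls. Its change of -0.64 ± 0.19 had an adjusted p of 0.060, which was 0.049 after cyclic loess. ZNF385A, a partner of p53, and its paralogs ZNF385B and ZNF385C were all lower in both experiments and were named after their values were seen. ZNF385A read 4.75 and 4.74, against 5.40 and 5.02 in controls (adjusted p = 0.097). ZNF385B read 4.37 and 4.34, against 4.66 and 4.93 in controls (adjusted p = 0.106). ZNF385C read 6.24 and 6.01, against 6.69 and 6.54 in controls (adjusted p = 0.066, and 0.047 after quantile normalization). In all 3 both anti-miR-191 arrays lay below both controls, a pattern shared by 23.8% of all genes. Of the 208 ZNF genes that did not pass, 121 had a positive and 87 a negative mean change, and 139 lay within 0.25 of 0.

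The limit on level bears on which genes were counted. The 3 genes just inside it were ZNF41 (mean 3.42, change -0.04), ZNF107 (3.42, 0.01) and ZNF140 (3.42, 0.34), and the 3 just outside were ZNF570 (3.41, -0.09), ZNF586 (3.41, 0.05) and ZNF534 (3.40, -0.15). Of the 260 genes, 12 had a control mean below the limit and so passed through the anti-miR-191 arrays, and 3 of them rose (ZNF37A, ZNF343 and ZNF804A). A further 3 passed through the controls alone, with anti-miR-191 means below it. When all 480 ZNF genes were tested, 56 were called higher and 0 lower, beside 1526 higher and 596 lower of 18417 genes in that fit. Of the 220 dim genes 1 was called, ZNF649 (0.56 ± 0.15, adjusted p = 0.048). The median change of all 480 was 0.03, against -0.02 over all genes in that fit. Of 9 ZNF genes in the 260 with several rows, 7 had rows of the same sign, with ZNF425 and ZNF503 the exceptions. ZNF genes include near copies of each other, so values of close paralogs are uncertain, and 39 rows that the annotation assigns to several genes including a ZNF gene were not used.

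Risen ZNF genes were also counted by level. Between 4 and 5, 18 of 76 ZNF genes rose (23.7%), against 146 of 3017 other genes (4.84%). Between 6 and 7, 13 of 40 rose (32.5%), against 374 of 2489 other genes (15%). Between 5 and 6 the shares were closer, 8 of 46 (17.4%) against 311 of 2918 (10.7%). Below 4 they were 6 of 72 (8.33%) against 37 of 1891 (1.96%). Of those 6 ZNF genes, 3 (ZNF37A, ZNF343 and ZNF804A) passed the limit only through the anti-miR-191 arrays, so this share supports nothing. Between 7 and 8 they were 7 of 24 (29.2%) against 317 of 1848 (17.2%). The 2 ZNF genes above 8 did not pass. These shares are counts over genes of the same 4 arrays and carry no test.

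**Figure D3:**
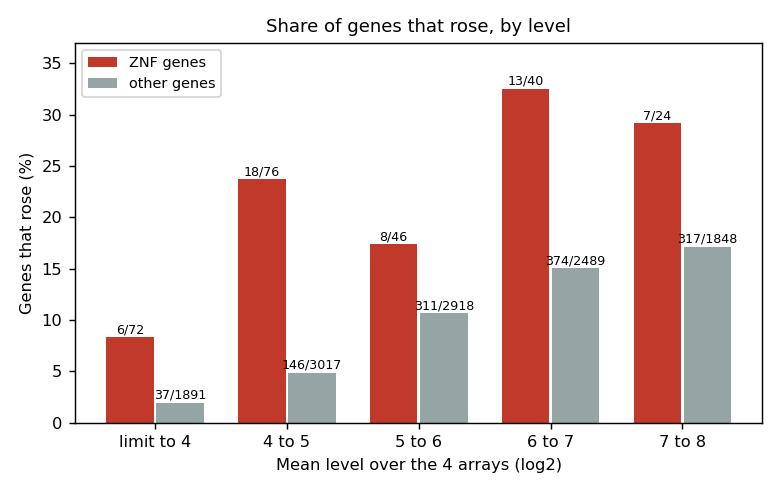
Share of genes that rose in limma's fit with the block, in percent, for ZNF genes (red) and other genes (grey) by mean level over the 4 arrays on the log2 scale. The numbers above the bars are risen over tested genes. The ZNF bar is the higher of the pair in each range drawn above a level of 4. In the lowest range 3 of the 6 risen ZNF genes passed the limit only through the anti-miR-191 arrays, so that bar supports nothing.

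ZNF genes on chromosome 19, where the KRAB clusters lie, had fewer calls for their number than ZNF genes elsewhere, a difference that was not tested. On chromosome 19, 11 of 93 rose (11.8%), with a median change of 0.05. On other chromosomes 41 of 167 rose (24.6%), with a median change of 0.15. Levels differed too, with a median of 4.27 on chromosome 19 and 4.89 elsewhere. Above a level of 5, 4 of 34 rose on chromosome 19 (11.8%) and 24 of 78 elsewhere (30.8%). Below it 7 of 59 (11.9%) and 17 of 89 (19.1%) rose. ZNF37A, ZNF343 and ZNF804A passed the limit only through the anti-miR-191 arrays. They lie off chromosome 19 and are among the 17 and the 41, so the shares below 5 support nothing. Other genes of chromosome 19 were lower on balance, with 39 of 984 called higher (3.96%), 74 called lower (7.52%) and a median change of -0.08. Other genes of the remaining chromosomes had 10.4% called higher and 3.56% lower. Chromosome 11 had 3 risen of 4 ZNF genes, chromosome 18 had 3 of 5, chromosome 2 had 4 of 7, chromosome 5 had 2 of 5 and chromosome 7 had 8 of 20. Without the block these were 2, 0, 1, 0 and 0. The 4 on chromosome 2 include ZNF804A. With the block, chromosomes 3, 4, 6, 17, 22 and X had 0 of 8, 0 of 2, 0 of 6, 0 of 7, 0 of 4 and 0 of 5.

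**Figure D4:**
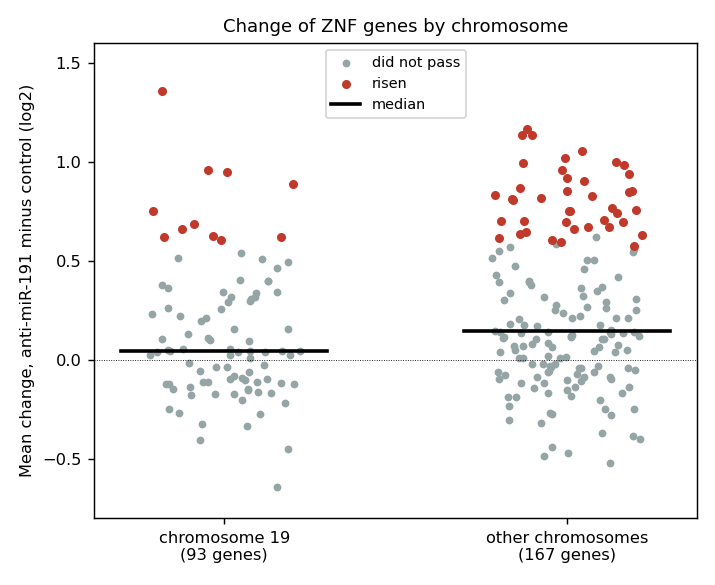
Mean change of each ZNF gene over both experiments, anti-miR-191 minus control (log2), for the 93 genes on chromosome 19 (left) and the 167 elsewhere (right). Red points rose, grey points did not pass, black bars are medians (0.05 and 0.15), and points are spread sideways for legibility only. The red points on the right include ZNF37A, ZNF343 and ZNF804A, which passed the limit only through the anti-miR-191 arrays.

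Risen ZNF genes were neighbours in a few places. Of the 260 genes, 136 stood directly beside another ZNF gene in the order of protein-coding genes, and 25 of these rose (18.4%), against 27 of the 124 others (21.8%). Without the block 3 of the 136 and 10 of the 124 were called. ZNF37A is among the 25 risen genes, and ZNF343 and ZNF804A are among the 27. These 3 passed the limit only through the anti-miR-191 arrays. Runs of adjacent ZNF genes with at least 2 of the 260 numbered 40, of which 4 held 2 or more risen genes. On chromosome 7, ZNF786, ZNF398, ZNF282 and ZNF777 rose out of 7 in a run of 8 genes, by 0.63, 0.60, 0.81 and 0.67. In the same run ZNF425 had changes of -0.25 and -0.24 and ZNF212 had changes of 0.44 and -0.10. On chromosome 19, ZNF426, ZNF121 and ZNF561 rose out of 5 in another run of 8 genes, by 0.89, 0.62 and 0.60, while ZNF266 (0.15 ± 0.15) and ZNF562 (0.11 ± 0.18) did not pass. In a run of 5 genes, also on chromosome 19, ZNF555 and ZNF556 rose out of 5. The pair ZNF623 and ZNF707 on chromosome 8 rose by 0.85 and 0.75. In the longest run, 27 genes on chromosome 19 that include ZNF91, a repressor of retrotransposons, 0 of 7 rose and the median change was -0.15. These runs were picked out after their values were seen.

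**Figure D5:**
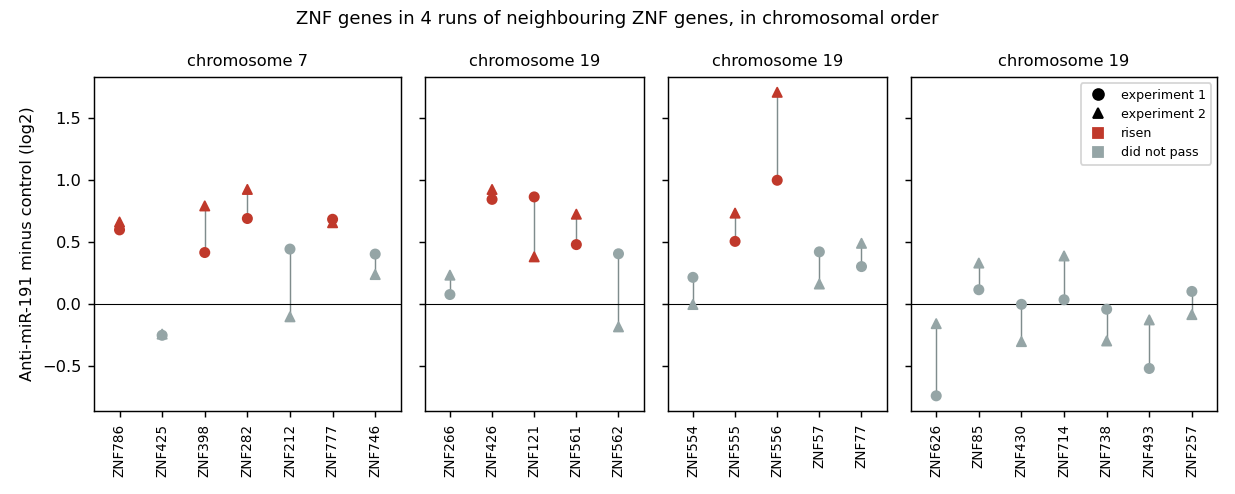
Change of each ZNF gene, anti-miR-191 minus control (log2), in 4 runs of neighbouring ZNF genes, in chromosomal order with genes below the level limit left out. Circles are experiment 1 and triangles experiment 2, red genes rose and grey genes did not pass; the first 3 runs hold 4, 3 and 2 risen genes and the last, of the 27 genes around ZNF91, holds 0.

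Promoter sequence was compared between the ZNF genes and the rest. A window of 300 bases was available for 218 of the 260 genes (83.8%), for 45 of the 52 that rose and for 11054 of all genes tested, taking the most upstream start of each gene. Of 8 motifs searched on both strands, the ETS core CCGGAAG differed most between ZNF genes and the rest. It was found in 84 of 218 ZNF windows (38.5%), against 15.8% of the windows of other genes and 16.2% of all. Among the ZNF genes it was in 23 of 45 that rose (51.1%) and in 61 of 173 that did not pass (35.3%). A difference of the same sign was counted outside the ZNF genes, where 249 of 1709 genes with the core rose, against 897 of 9127 without it. These other genes also differed in level, with a median of 6.40 with the core and 5.66 without it, and the counts were not matched for level. On chromosome 19, 3 of 33 genes with the core rose and 8 of 53 without it, and elsewhere 20 of 51 with the core and 14 of 81 without it. Over all ZNF genes with a window, the median change was 0.14 with the core and 0.13 without it. On chromosome 19 it was 0.04 with the core and 0.09 without it, and elsewhere 0.26 and 0.14. The CCAAT box, CCAAT, was in 45.4% of ZNF windows, beside 35.5% of all. The GC box, GGGCGG, was in 70.2% beside 66.5%, the NRF1 site GCGCNTGCG in 13.3% beside 12.9%, the E-box CACGTG in 7.80% beside 9.92%, the EGR site GCGNGGGCG in 10.1% beside 14.7%, and the AP-1 site TGANTCA in 3.67% beside 4.80%. The AP-1 site was in 1 of the 45 risen windows and the NRF1 site in 2. The cyclic AMP response element TGACGTCA was in 11 ZNF windows (5.05%, beside 2.94% of all), and 5 of these genes rose: ZNF143, ZNF335, ZNF121, ZNF426 and ZNF561. Without the element 40 of 207 ZNF genes rose (19.3%). Among other genes 48 of 314 with it rose (15.3%), against 10.4% without it. The GC box can overlap the EGR site. A match describes letters in a window, not a bound site.

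The last 3 of those genes are the risen neighbours on chromosome 19, and all 5 genes of that run above the limit held the element. The stretch with 20 bases on each side is shown for the 5, on the minus strand of GRCh38.p14 from RefSeq, with the element in capitals. They lie at chr19:9538639-9538686 (ZNF426), chr19:9584527-9584574 (ZNF121), chr19:9621228-9621275 (ZNF561), chr19:9435563-9435610 (ZNF266) and chr19:9675080-9675127 (ZNF562), the first 3 being the genes that rose.

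ZNF426: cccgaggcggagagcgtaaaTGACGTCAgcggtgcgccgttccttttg

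ZNF121: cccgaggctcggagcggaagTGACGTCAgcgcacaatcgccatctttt

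ZNF561: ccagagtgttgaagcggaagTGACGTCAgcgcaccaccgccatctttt

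ZNF266: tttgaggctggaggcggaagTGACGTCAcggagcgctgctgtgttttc

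ZNF562: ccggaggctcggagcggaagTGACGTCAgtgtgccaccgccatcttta

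All but ZNF426 share the stretch gcggaagTGACGTCA, which was found in 7 of the 11054 windows, 4 of them in this run. Of the 7 genes 2 rose, ZNF121 and ZNF561. ZNF121 read 5.54 and 5.30 after anti-miR-191 and 4.67 and 4.92 in controls. ZNF561 read 4.26 and 4.76 after anti-miR-191 and 3.78 and 4.03 in controls. ZNF562, with the same stretch, read 4.41 and 4.24 after anti-miR-191 and 4.01 and 4.43 in controls, so that its groups overlapped. The element was in genes of the run that rose and in genes that did not pass.

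Genes for proteins that work with KRAB zinc fingers were looked at as well. Of 38 listed genes of the TRIM28, SETDB1, HP1, HUSH, NuRD and DNA methylation machinery 33 were tested, and 6 rose and 0 fell with the block (18.2%, beside 10.1% of all genes higher and 3.77% lower), 1 of them also without it (beside 3.2% higher). At an unadjusted p under 0.05, limma's fit with the block counted 8 higher and 0 lower. Control means of the 33 genes lay between 3.38 and 10.12, and the share of 18.2% was not matched for level. Outside the ZNF genes, 4.84% of genes were called higher between levels of 4 and 5, and 17.2% between 7 and 8. TRIM28 read 10.46 and 10.29, against 10.15 and 10.09 in controls, and did not pass (0.26 ± 0.15, adjusted p = 0.301). SETDB1 read 5.98 and 6.22, against 5.69 and 5.62 in controls (0.45 ± 0.15, adjusted p = 0.102). The risen genes were MTA2 of the NuRD complex (1.97-fold), the heterochromatin factor ADNP (1.79-fold, with changes of 1.16 and 0.53), MORC2 (1.58-fold), the DNA methyltransferase DNMT3B (1.55-fold), RCOR1 (1.53-fold) and EHMT1 (1.48-fold). After quantile normalization MTA2 kept its call (limma's adjusted p = 0.030 with the block). ADNP, MORC2, DNMT3B, RCOR1 and EHMT1 lost theirs (adjusted p = 0.059, 0.066, 0.092, 0.072 and 0.119). DNMT3B and EHMT1 also lost theirs after median centring and after cyclic loess. EHMT2, the partner of EHMT1, had changes of -0.30 and -0.17 (adjusted p = 0.355). Zinc finger genes with other names were counted in the same way. Of 26 tested genes named ZFP, ZSCAN or ZKSCAN, 0 were called in either direction by limma with or without the block, with 5 higher and 1 lower at an unadjusted p under 0.05 and a median change of -0.01. Of 38 ZBTB genes 7 rose and 0 fell with the block (18.4%, beside 10.1% of all genes higher), and 1 rose without it. Their control means lay between 3.43 and 11.15, and this share was not matched for level either. Whether these families differ from the ZNF genes was not tested.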

How the data were processed

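Values for the 4 arrays are log2 intensity as the authors deposited them. The submitters' processing notes name RMA and the Affymetrix Expression Console, with no version, and do not say which arrays were processed jointly. RMA corrects background, normalizes between arrays and summarizes probes. Base 2 is assumed for the logarithm, since RMA writes it and the values fit that range. Such intensities carry no counting depth, so the number of arrays limits precision. GEO's platform annotation of 2016 named the rows, and RefSeq tables of GRCh38.p14 gave chromosomes, gene order and sequences. All 260 Entrez identifiers matched.

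From the deposited values, limma 3.58.1 (R 4.3.3; lmFit and eBayes, two-sided) was fitted over 14147 genes, with the brightest row of each gene above a mean of 3.41 and the experiment as a block (1 residual and 6.60 prior degrees of freedom), and without it (2 and 4.32). The pairing comes from the series text and the title numbers. Same-numbered arrays' deviations correlated at 0.335 over all genes and 0.167 over ZNF genes; with 2 pairs this is a single value. The ZNF genes, lists and named-gene rule (the 15 genes each way with the largest change common to both experiments among those called in either fit; 0 were lower) were chosen with earlier results of these data known. The rule also names the listed genes, the extremes of each experiment and the genes beside the level limit. Other genes named, the runs and the motifs were chosen after their values were seen. Proteins were not used, so KRAB domains and fingers were not counted. The fits were tested on simulated data. Figures were drawn with matplotlib 3.10.9.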

Additional observations from a re-analysis of the deposited data

Results flagged for a closer look

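Of the genes named by rule, leaving out those beside the level limit, 5 had changes of opposite sign in the 2 experiments, anti-miR-191 minus control. The difference was not tested because each experiment has 1 array per group. ZNF217, a breast cancer oncogene, changed sign between 0.30 (experiment 1) and -0.44 (experiment 2), a difference of -0.74. ZNF652 had changes of 0.22 and -0.30, a difference of -0.52. ZNF445, which helps to maintain imprints, had changes of 0.36 and -0.15, a difference of -0.51. ZNF451, a SUMO ligase, had changes of -0.05 and 0.47, a difference of 0.51. ZNF703 had changes of 0.12 and -0.04, a difference of -0.15. Beside the level limit, ZNF586 (0.16 and -0.06), ZNF41 (-0.09 and 0.0008) and ZNF107 (0.02 and -0.008) also had opposite signs.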

How the results depend on the processing

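For the ZNF genes, 52 higher calls became 13 with no replicate block, 33 with only rows above the median level (155 ZNF genes tested), 34 after quantile normalization, and between 0 and 3 with single arrays left out; they stayed between 45 and 56 with no filter on dim rows, median centring, cyclic loess, limma-trend, the mean of a gene's rows or a required change of 1.5-fold. Of the same 52 genes, 47 kept their call after cyclic loess and 45 after median centring. Lower calls stayed at 0 except for 1 after quantile normalization and 1 after cyclic loess. The median change of 0.12 was 0.02731 over all 480 ZNF genes, 0.17 above the median level, 0.15 after cyclic loess, and between 0.12 and 0.15 with single arrays left out. Over all genes, 1428 higher and 533 lower calls became 452 and 101 with no replicate block, 881 higher after quantile normalization, and between 0 and 315 higher and 0 and 24 lower with single arrays left out; where these were 0, limma counted 1189, 1691 and 2250 higher and 474, 741 and 928 lower at an unadjusted p under 0.05. Leaving out an array used the fit without the block, which assumes that the lone array of a group varies like the other group. No named gene reversed its direction while called. Most ZNF signals lie in the range of markers of other cell types, which limits what their fold changes show. The cause of these dependences was not tested.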

Other observations

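ZNF165 had the largest mean change, 0.62, among the ZNF genes that did not pass. ZNF770 and ZNF487 stood farthest apart between the experiments, with changes of 0.88 and -0.43 for ZNF770 and of 0.79 and -0.43 for ZNF487. ZNF770 read 4.82 and 4.71 after anti-miR-191, against 3.94 and 5.14 in controls, so the controls differed more than the anti-miR-191 arrays. Between the experiments themselves, limma's fit with the block called 0 ZNF genes (21 at an unadjusted p under 0.05) and 45 of all genes.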
